A study of Rattus norvegicus with 36 samples.

Results

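The 7 genes described here belong to the aryl hydrocarbon receptor (AhR) pathway outside the Cyp1a family: Ahr, Arnt, Ahrr, Tiparp, Cyp1b1, Aldh3a1 and Nqo1. They were chosen by gene symbol. Every probe set that the platform annotation gives to 1 of these genes alone was taken, which gave 9 of the 31042 probe sets on the array and 7 of its 14217 named genes. Ahr and Tiparp each had 2 probe sets and the other genes had 1. Cyp1a1 and Cyp1a2 serve as the yardstick throughout.

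Liver RNA came from 36 male Sprague Dawley rats, aged 7 weeks at the start, in 6 groups of 6. They were gavaged daily for 5 days with decabromodiphenylethane (DBDPE), a brominated flame retardant, at 0.1 mg/kg, 0.97 mg/kg, 9.71 mg/kg, 97.1 mg/kg or 970 mg/kg, and the vehicle group received corn oil alone (5 ml/kg). Tissue was taken from the left lobe a day after the final gavage, and each rat gave 1 Affymetrix array. All values are log2 signals, so a difference of 1 is a doubling.

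The AhR is a ligand-activated transcription factor that waits in the cytosol in a chaperone complex. On binding a planar aromatic ligand it enters the nucleus, pairs with Arnt and binds DNA at response elements whose core is GCGTG. Cyp1a1 and Cyp1a2 are its classical targets in rodent liver. Cyp1b1, Aldh3a1 and Nqo1 are further enzymes of the same gene battery, while Ahrr and Tiparp are target genes whose products repress the receptor.

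The promoter windows of 4 battery and feedback genes and of Cyp1a2 are shown because they differ in whether they hold the core of the response element, and the results below set those genes beside each other. Sequences are RefSeq's on the GRCr8 assembly, from 250 bases before to 50 bases after the annotated start, printed 5′ to 3′ on the gene's strand. Capitals mark GCGTG on either strand (CACGC where it lies on the opposite strand).
Tiparp (chr2:152063519-152063818, plus strand): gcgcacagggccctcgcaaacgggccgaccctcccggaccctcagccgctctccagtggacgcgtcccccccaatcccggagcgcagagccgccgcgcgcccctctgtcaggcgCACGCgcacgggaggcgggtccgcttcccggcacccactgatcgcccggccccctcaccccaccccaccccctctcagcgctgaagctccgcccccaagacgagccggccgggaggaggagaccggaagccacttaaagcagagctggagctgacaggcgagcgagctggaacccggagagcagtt
Nqo1 (chr19:52220218-52220517, minus strand): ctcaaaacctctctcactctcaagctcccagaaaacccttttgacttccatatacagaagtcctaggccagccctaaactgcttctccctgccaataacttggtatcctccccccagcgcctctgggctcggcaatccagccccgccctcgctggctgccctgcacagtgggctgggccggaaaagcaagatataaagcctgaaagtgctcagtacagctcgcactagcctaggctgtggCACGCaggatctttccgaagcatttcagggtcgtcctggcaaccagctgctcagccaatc
Cyp1b1 (chr6:21094315-21094614, plus strand): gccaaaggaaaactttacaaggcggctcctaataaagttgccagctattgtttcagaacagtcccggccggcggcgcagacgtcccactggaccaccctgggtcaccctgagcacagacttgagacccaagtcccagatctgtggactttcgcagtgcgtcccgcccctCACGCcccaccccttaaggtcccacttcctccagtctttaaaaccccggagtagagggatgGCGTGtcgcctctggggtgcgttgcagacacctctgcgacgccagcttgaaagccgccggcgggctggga
Ahrr (chr1:30821969-30822268, plus strand): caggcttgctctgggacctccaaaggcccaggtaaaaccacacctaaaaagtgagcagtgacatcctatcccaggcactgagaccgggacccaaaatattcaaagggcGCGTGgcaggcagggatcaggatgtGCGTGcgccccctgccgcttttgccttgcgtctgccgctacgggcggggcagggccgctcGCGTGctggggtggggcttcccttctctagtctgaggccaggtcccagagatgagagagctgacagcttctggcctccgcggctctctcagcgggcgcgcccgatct
Cyp1a2 (chr8:66978100-66978399, minus strand): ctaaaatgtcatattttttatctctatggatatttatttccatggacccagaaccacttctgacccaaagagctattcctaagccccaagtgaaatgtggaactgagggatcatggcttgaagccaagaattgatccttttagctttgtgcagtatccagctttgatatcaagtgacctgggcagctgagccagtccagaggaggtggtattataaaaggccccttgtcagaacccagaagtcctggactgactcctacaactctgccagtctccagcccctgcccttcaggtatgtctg

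The table of windows held 6 of the 7 genes, and Aldh3a1 was not among them. It held no window for Cyp1a1 either. GCGTG was present on either strand in 5 of the 6 windows, against 29.7% of all 33469 windows of this length. Ahrr held 3 matches, Cyp1b1 2, and Arnt, Tiparp and Nqo1 1 each, whereas the windows of Ahr and of Cyp1a2 held 0. The Nqo1 match began at position -10 and the Tiparp match at position -136 relative to the annotated start. The longer form TNGCGTG, which contains the core, was found in 2 of the 6 windows (Ahrr and Cyp1b1), against 4.89% of all windows. TGACNNNGC, the core of the antioxidant response element through which Nrf2 acts, was found in 1 of the 6 (Arnt, 2 matches), against 12.1% of all windows. A match is a description of the letters and does not show that a factor binds there. Sequence outside these windows was not read, so 0 matches in a window does not show that a gene lacks the element.

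None of the 7 genes passed the test at any dose, while Cyp1a1 rose strongly and Cyp1a2 rose by less. Cyp1a1, a monooxygenase that oxidises planar aromatic compounds, had signals of 10.02 to 11.81 (median 10.81) at 970 mg/kg, against 4.35 to 4.76 (median 4.55) in vehicle livers. All 6 animals at 970 mg/kg lay above every vehicle animal. The mean was 10.81 ± 0.63 at 970 mg/kg and 4.57 ± 0.15 in vehicle (SD, n = 6 each), a difference of 6.23 (95% interval 5.66 to 6.80) or 75.2-fold, with adjusted p = 9.190e-18 by limma. Cyp1a2, its sister enzyme, rose by 0.86 (0.74 to 0.99), or 1.82-fold. Its signals were 13.58 to 13.78 at 970 mg/kg and 12.58 to 12.93 in vehicle. At 97.1 mg/kg Cyp1a1 rose by 3.49 and Cyp1a2 by 0.51.

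Cyp1a1 and Cyp1a2 were the only probe sets called at 970 and at 97.1 mg/kg. At 970 mg/kg, 2 of 31042 probe sets passed an adjusted p of 0.05 (0.00644%), and 0 of the 9 probe sets of the pathway genes did. The background was likewise 0.00644% at 97.1 mg/kg, for 970 against 97.1 mg/kg, for the slope over dose steps and for any dose, and 0% at 9.71, 0.97 and 0.1 mg/kg, with 0 of 9 called each time. By an unadjusted p of 0.05, 1 of the 9 passed at 970 mg/kg (a Tiparp probe set), against 4.87% of all probe sets, 1 at 0.1 mg/kg (Arnt), against 4.46%, and 1 for the slope (the same Tiparp probe set), against 5.7%. That level was passed by 0 of 9 at 97.1, 9.71 and 0.97 mg/kg, against 5.42%, 5.06% and 4.92% of all probe sets, and by 0 of 9 for 970 against 97.1 mg/kg, against 3.86%. At 970 mg/kg 6 of the 9 differences were above 0, against 48.1% of all probe sets. In 0 of the 9 did the animals at 970 mg/kg and in vehicle fail to overlap, against 0.2% of all probe sets.

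**Figure D1:**
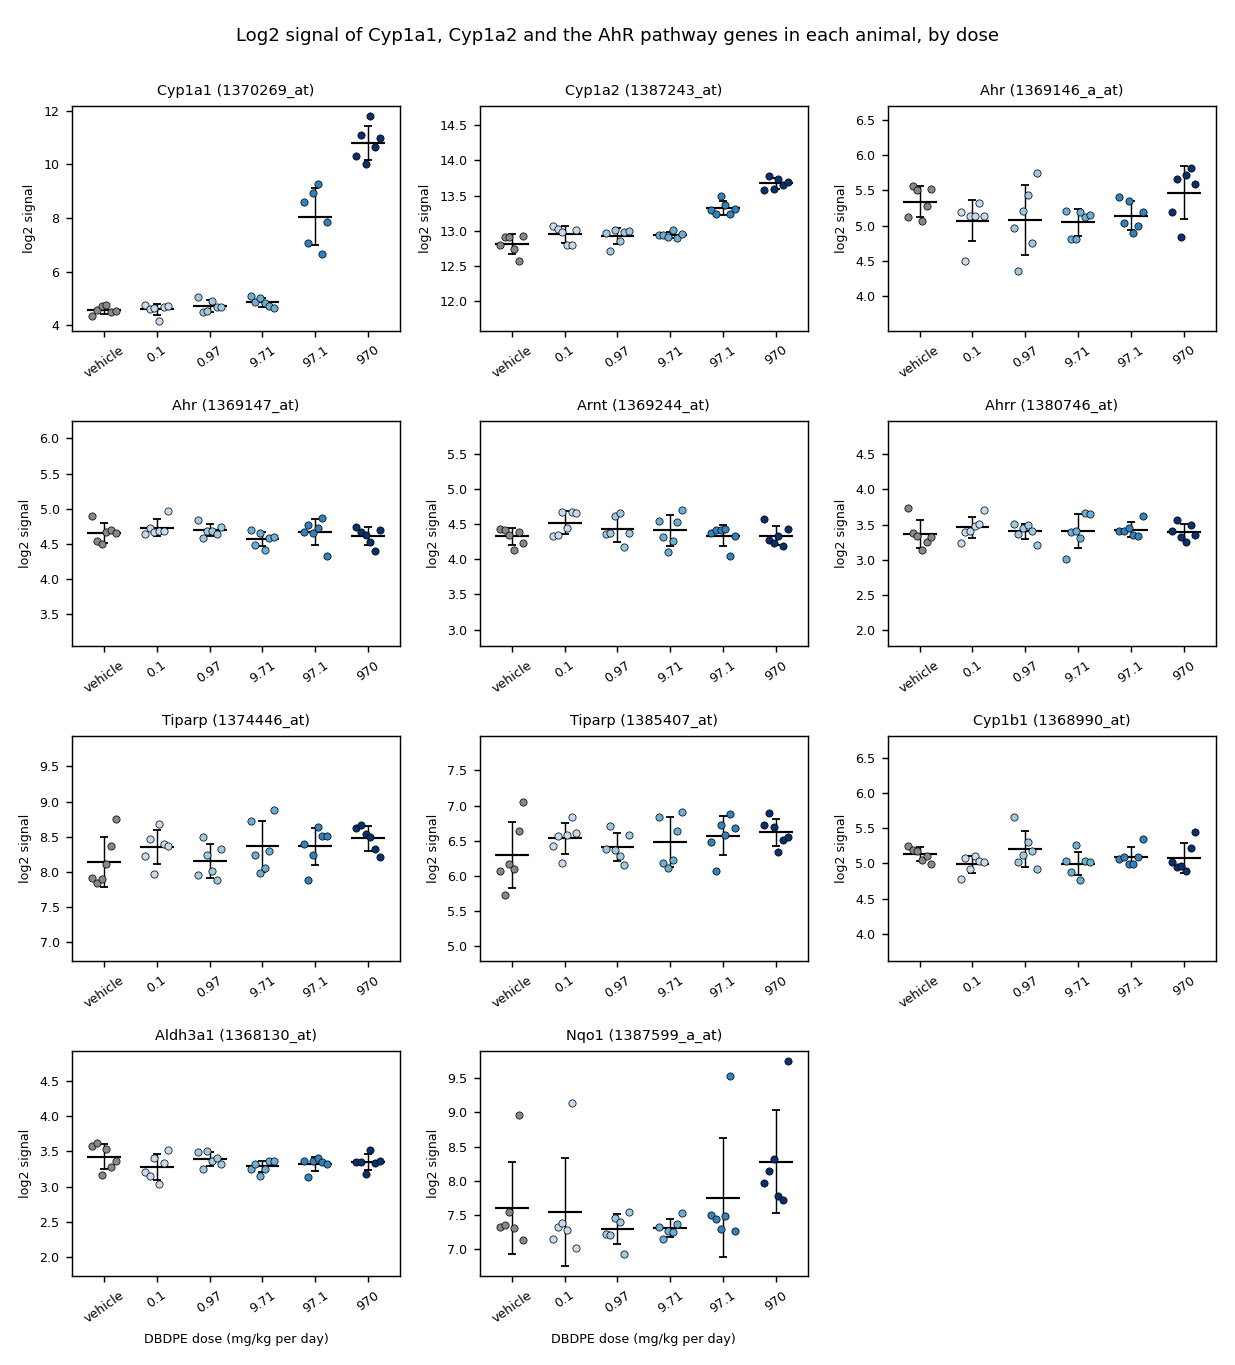
Log2 signal (vertical axis) of each animal by DBDPE dose in mg/kg per day (horizontal axis), with 1 panel per probe set; points are animals, long lines the group means and bars the SD (n = 6). Cyp1a1 climbs at 97.1 and 970 mg/kg, while the groups of every pathway gene overlap; the vertical scale differs between panels.

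The receptor and its partner come first. Ahr, the ligand-binding receptor itself, was read by 2 probe sets that did not move together across the 36 arrays (r = -0.19). The brighter one (1369146_a_at) had signals of 5.19, 5.66, 4.83, 5.72, 5.82 and 5.59 in the 6 animals at 970 mg/kg, against 5.12, 5.56, 5.50, 5.06, 5.28 and 5.52 in vehicle. At the high dose 4 animals lay above every vehicle animal and 1 lay below every vehicle animal, so the groups overlapped. The means were 5.47 ± 0.38 at 970 mg/kg and 5.34 ± 0.22 in vehicle (SD, n = 6 each), a difference of 0.13 (-0.22 to 0.48; limma adjusted p = 0.979).

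Over the dose series this Ahr probe set averaged 5.34 in vehicle, 5.07 at 0.1, 5.08 at 0.97, 5.05 at 9.71, 5.14 at 97.1 and 5.47 at 970 mg/kg. The 4 lower doses thus lay below vehicle in their means and the highest dose above it. The exact two-sided permutation test at 9.71 mg/kg, where the difference was -0.29, gave p = 0.0455. It was the single one of 45 such tests over the 9 probe sets and 5 doses with p under 0.05, and limma gave that difference an adjusted p of 0.978. The step between 970 and 97.1 mg/kg was 0.33 (-0.02 to 0.67; limma adjusted p = 0.999). The dimmer Ahr probe set (1369147_at) had 4.61 ± 0.12 at 970 mg/kg and 4.66 ± 0.14 in vehicle, a difference of -0.05 (-0.20 to 0.11), so the probe sets did not share a direction.

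Arnt, the obligate partner of the receptor on DNA, had signals of 4.19 to 4.57 (median 4.30) at 970 mg/kg, against 4.13 to 4.43 (median 4.37) in vehicle. The ranges overlapped, with 1 animal at 970 mg/kg above every vehicle animal, and the difference of means was 0.01 (-0.17 to 0.20). Its dose series ran 4.32 in vehicle, 4.52 at 0.1, 4.43 at 0.97, 4.41 at 9.71, 4.33 at 97.1 and 4.34 at 970 mg/kg. Arnt was thus highest at the lowest dose, where the difference of 0.19 (0.01 to 0.38) had an unadjusted p of 0.0421 and an adjusted p of 0.999 by limma.

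Of the genes whose products repress the receptor, Tiparp came nearest to the threshold without passing it. Tiparp encodes a mono-ADP-ribosyltransferase that modifies the AhR and shortens its action. Its probe set 1374446_at had signals of 8.63, 8.67, 8.53, 8.49, 8.33 and 8.22 at 970 mg/kg, against 7.91, 7.84, 7.90, 8.11, 8.37 and 8.76 in vehicle. All 6 animals at 970 mg/kg lay above the vehicle mean and the vehicle median, but 1 vehicle animal lay above every animal at 970 mg/kg. The means were 8.48 ± 0.18 at 970 mg/kg and 8.15 ± 0.36 in vehicle (SD, n = 6 each).

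The Tiparp difference at 970 mg/kg was 0.33 (0.02 to 0.64), or 1.26-fold, with an unadjusted p of 0.0367 and an adjusted p of 0.966 by limma. The exact two-sided permutation test of the same 12 animals gave p = 0.0714. Its dose series was not graded: the means were 8.15 in vehicle, 8.35 at 0.1, 8.15 at 0.97, 8.36 at 9.71, 8.36 at 97.1 and 8.48 at 970 mg/kg. The slope was 0.054 per dose step, with an unadjusted p of 0.0397 and an adjusted p of 0.863 by limma. The other probe set (1385407_at) followed the same animals (r = 0.86 over 36 arrays) and gave 6.62 ± 0.19 at 970 mg/kg against 6.29 ± 0.47 in vehicle, a difference of 0.33 (-0.01 to 0.66; limma adjusted p = 0.966).

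Tiparp also varied among animals within a dose more than most features did. The residual SD of its brighter probe set was 0.28, above that of 96.2% of all probe sets, whose median was 0.14. The 3 genes most like it over the 36 arrays, by Pearson r, were Sertad1, a transcriptional cofactor (r = 0.94), Bhlhe40, a repressor linked to the circadian clock (r = 0.90), and Ccnl1, a cyclin linked to RNA splicing (r = 0.87). With group means removed the values were 0.94, 0.90 and 0.87, so the likeness lay within the dose groups. Tiparp and Ccnl1 lie on chromosome 2 with 1 protein-coding gene between their starts.

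None of these 3 genes passed the test. Sertad1 differed by 0.46 between 970 mg/kg and vehicle, with an unadjusted p of 0.00938 and an adjusted p of 0.966 by limma. Bhlhe40 differed by 0.62 and Ccnl1 by 0.33, with adjusted p values of 0.972 and 0.966 by limma. They were picked as the best matches among all probe sets that name 1 other gene, so their r values are a description and carry no p.

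**Figure D2:**
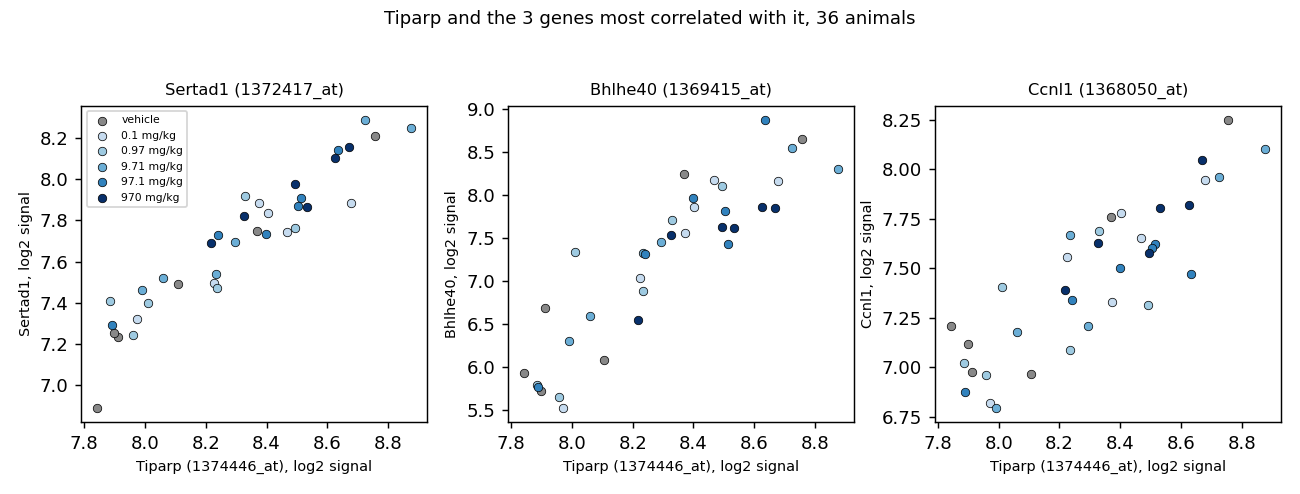
Log2 signal of Sertad1, Bhlhe40 and Ccnl1 (vertical axes) against that of Tiparp (horizontal axis, probe set 1374446_at) in the 36 animals, coloured by dose. Animals of every dose are spread along the same line (r = 0.94, 0.90 and 0.87), and the 970 mg/kg animals sit between 8.22 and 8.67 on the Tiparp axis.

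Ahrr, the repressor that competes with the AhR for Arnt, stayed at a low signal. Its values were 3.25 to 3.57 (median 3.38) at 970 mg/kg and 3.14 to 3.74 (median 3.33) in vehicle. The 970 mg/kg animals fell inside the vehicle range. The difference was 0.04 (-0.15 to 0.22), and the means over the dose series were 3.36 in vehicle, 3.46 at 0.1, 3.41 at 0.97, 3.41 at 9.71, 3.43 at 97.1 and 3.40 at 970 mg/kg.

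Nqo1, a quinone reductase under the shared control of the AhR and of the oxidative stress factor Nrf2, had the largest difference of the 7 genes and the widest spread. Its signals were 7.97, 8.15, 8.32, 7.78, 7.71 and 9.75 at 970 mg/kg, against 7.33, 7.35, 7.55, 7.30, 8.96 and 7.14 in vehicle. Apart from the vehicle animal at 8.96, every animal at 970 mg/kg lay above every vehicle animal. The means were 8.28 ± 0.75 at 970 mg/kg and 7.60 ± 0.68 in vehicle (SD, n = 6 each), and the medians were 8.06 at 970 mg/kg and 7.34 in vehicle, a median difference of 0.72.

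The limma difference for Nqo1 was 0.68 (-0.02 to 1.38), or 1.60-fold, with an unadjusted p of 0.0582 and an adjusted p of 0.966. The exact two-sided permutation test of the means gave p = 0.141. Nqo1 averaged 7.60 in vehicle, 7.55 at 0.1, 7.29 at 0.97, 7.31 at 9.71, 7.75 at 97.1 and 8.28 at 970 mg/kg, and its medians in that order were 7.34, 7.30, 7.31, 7.29, 7.46 and 8.06. The medians of vehicle and of the 4 lower doses thus lay between 7.29 and 7.46, and that of 970 mg/kg stood above them.

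The wide spread came from single animals. In 4 of the 6 groups 1 animal stood far above the rest: 8.96 in vehicle, where the next highest was 7.55, 9.14 at 0.1 mg/kg (next 7.38), 9.53 at 97.1 mg/kg (next 7.51) and 9.75 at 970 mg/kg (next 8.32). The residual SD of Nqo1 was 0.64, above that of 99.6% of all probe sets. Leaving out 1 animal moved the difference at 970 mg/kg between 0.38 (without the 970 mg/kg animal at 9.75) and 0.95 (without the vehicle animal at 8.96), with limma adjusted p values no lower than 0.818.

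Methods that give such animals less weight were applied after the data were seen. Robust regression and a fit without the 4 arrays of high Nqo1 called Nqo1 at 970 mg/kg. Robust regression over the 36 arrays gave a difference of 0.68 (0.46 to 0.90) with an adjusted p of 0.00226, in a fit that called 56 probe sets (0.18%) where the standard limma fit called 2. An exact permutation test of mean ranks gave 8.67 at 970 mg/kg against 4.33 in vehicle and an unadjusted p of 0.0411. Without those 4 arrays the means were 7.99 ± 0.25 at 970 mg/kg and 7.33 ± 0.15 in vehicle (SD, n = 5 each), a difference of 0.65 (0.43 to 0.87), which is 1.57-fold, and limma gave it an adjusted p of 0.00917. In that fit 3 probe sets passed (0.00966%), those of Cyp1a1, Cyp1a2 and Nqo1. Choosing the arrays by their Nqo1 signal narrows the spread of Nqo1 by construction, so that p is too small.

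At 97.1 mg/kg, where Cyp1a1 had already risen by 3.49, no fit called Nqo1. Its difference there was 0.15 (-0.55 to 0.85) in the standard fit, 0.07 (-0.15 to 0.28) by robust regression and 0.07 (-0.15 to 0.28) without the 4 arrays, with adjusted p values of 0.997, 0.918 and 0.999. The step between 970 and 97.1 mg/kg was 0.53 (-0.17 to 1.23; limma adjusted p = 0.999) in the standard fit, 0.61 by robust regression (adjusted p = 0.0122) and 0.59 without the 4 arrays (limma adjusted p = 0.0791). Robust regression called 18 probe sets for that step, where the standard fit called 2. At 9.71, 0.97 and 0.1 mg/kg it called 40, 23 and 16 probe sets, where the standard fit called 0.

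The genes whose signal was most like that of Nqo1 over the 36 arrays shared the high animals. They were Cyb5b, a cytochrome b5 of the outer mitochondrial membrane (r = 0.65), Tradd, an adaptor of the tumour necrosis factor receptor (r = 0.60), and Isoc2b, an isochorismatase domain protein (r = 0.59). Without the 4 animals farthest from the median these r values were -0.01, 0.16 and 0.22. Cyb5b and Tradd had their highest value of the group in each of the 4 animals, at 9.49 and 6.84 in the vehicle animal, 9.13 and 6.74 at 0.1 mg/kg, 9.52 and 6.81 at 97.1 mg/kg and 9.33 and 6.73 at 970 mg/kg. The next highest values in those groups, in the same order, were 9.05 and 6.49, 9.06 and 6.66, 9.09 and 6.56, and 9.04 and 6.67. Because the genes were picked by r values that rest on these 4 animals, the shared rank is partly built in. Isoc2b was the highest of its group in 3 of those animals and the third highest in the 970 mg/kg animal.

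Both Cyb5b and Tradd lie on chromosome 19 with Nqo1, as do 2.74% of the probe sets that name 1 gene. Isoc2b lies on chromosome 1. Tmem170a and Cmip, among the genes most like Ahr, also lie on chromosome 19, while Ahr lies on chromosome 6. RefSeq places 1 protein-coding gene between the starts of Nqo1 and Cyb5b and 69 between those of Nqo1 and Tradd. A further Cyb5b probe set (1371795_at) ran against Nqo1 instead (r = -0.39), so the likeness held for 1 of the 2 Cyb5b probe sets. These genes were picked as the best matches among all, so their values are a description of these animals.

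**Figure D3:**
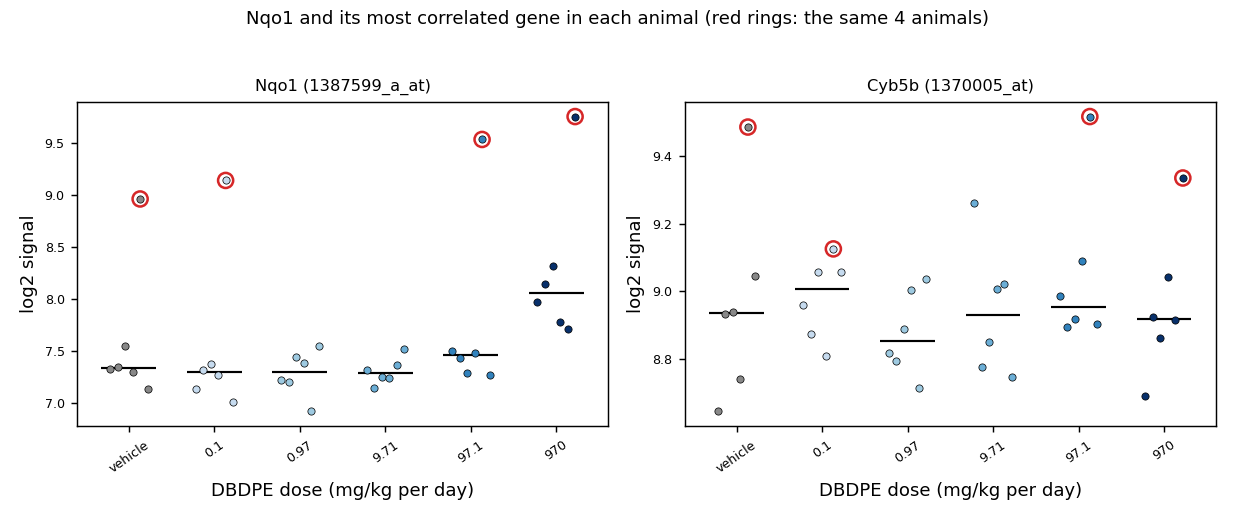
Log2 signal (vertical axes) of Nqo1 and of Cyb5b (probe set 1370005_at) in each animal by DBDPE dose in mg/kg per day (horizontal axes); lines are group medians and red rings mark the same 4 animals in both panels. The ringed animals have Nqo1 signals of 8.96 to 9.75, and the 5 other animals at 970 mg/kg lie between 7.71 and 8.32.

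Cyp1b1, the extrahepatic relative of Cyp1a1 that metabolises oestrogens and aromatic hydrocarbons, did not pass the test at any dose. Its signals were 4.89 to 5.45 (median 4.99) at 970 mg/kg and 4.99 to 5.26 (median 5.14) in vehicle. At 970 mg/kg 3 animals lay below every vehicle animal and 1 above every vehicle animal. The means were 5.08 ± 0.21 at 970 mg/kg and 5.13 ± 0.10 in vehicle (SD, n = 6 each), a difference of -0.05 (-0.24 to 0.15). The dose series ran 5.13 in vehicle, 4.99 at 0.1, 5.20 at 0.97, 5.00 at 9.71, 5.10 at 97.1 and 5.08 at 970 mg/kg, with no order by dose.

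Aldh3a1, an aldehyde dehydrogenase, of the battery that oxidises aromatic aldehydes, also stayed at a low signal. Its values were 3.17 to 3.52 (median 3.35) at 970 mg/kg and 3.16 to 3.62 (median 3.45) in vehicle, so the 970 mg/kg animals fell inside the vehicle range. The difference was -0.08 (-0.23 to 0.08), and 5 of 6 animals at 970 mg/kg lay below the vehicle mean. The 5 dose means were all below that of vehicle: 3.42 in vehicle, 3.28 at 0.1, 3.39 at 0.97, 3.29 at 9.71, 3.32 at 97.1 and 3.35 at 970 mg/kg. At 0.1 mg/kg, where its mean was lowest, the difference of -0.15 (-0.30 to 0.01) had an adjusted p of 0.999 by limma.

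The deposited values hold no detection calls, and this limits the dim genes. Probe sets of 18 olfactory receptor genes, which are not known to be expressed in liver, had mean signals of 2.66 to 5.78 between their 5th and 95th percentiles. The mean signals of Ahr, Arnt, Ahrr, Cyp1b1 and Aldh3a1 all lay within that range, and those of Tiparp and Nqo1 above it. The median of the olfactory probe sets was 3.45 and the brightest was at 7.15, above the dimmer Tiparp probe set (6.49). Ahrr lay above 50% of the olfactory probe sets and Aldh3a1 above 44.4%. Arnt lay above 77.8% of them, the Ahr probe sets above 88.9% and 83.3%, and Cyp1b1 above 88.9%. A probe set's brightness depends on its own probes, so this is a rough yardstick. For the 5 genes within the range the values do not show whether the transcript was above background, and a change below the reach of the probes was not detectable. The vehicle signals of Cyp1a1 (4.35 to 4.76) also lay within the range, so the 75.2-fold difference is a ratio of signals and not an exact fold of the transcript.

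Each gene's change was then set against that of Cyp1a1 in the same animals, by an exact two-sided permutation test of the signal of Cyp1a1 minus that of the gene. At 970 mg/kg the signal of Cyp1a1 rose by 5.56 (against Nqo1) to 6.31 (against Aldh3a1) more than the 9 probe sets on the log2 scale. At 97.1 mg/kg the excess was 3.21 (against a Tiparp probe set) to 3.68 (against an Ahr probe set). Of these 18 exact tests, 17 gave the smallest p that 6 against 6 animals allow (0.00216), and Nqo1 at 97.1 mg/kg gave p = 0.0108. Cyp1a1 alone gave p = 0.00216 by the exact test against vehicle at each of these doses. The 18 tests thus show that the signal of Cyp1a1 rose further than each probe set did. They do not show whether a gene changed. For Ahr, Arnt, Ahrr, Cyp1b1 and Aldh3a1 these tests compare signals, and such a gap would arise too if the probes did not read the transcript. Their intervals likewise do not bound a change of the transcript. The upper ends of the 95% intervals at 970 mg/kg were 1.38 for Nqo1 and 0.66 and 0.64 for Tiparp, against a difference of 6.23 for Cyp1a1. The difference of 0.86 for Cyp1a2 lay above the Tiparp intervals but inside that of Nqo1 (-0.02 to 1.38). The residual SD was 0.10 for Cyp1a2 and 0.64 for Nqo1. No gene was tested against Cyp1a2 in this way.

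**Figure D4:**
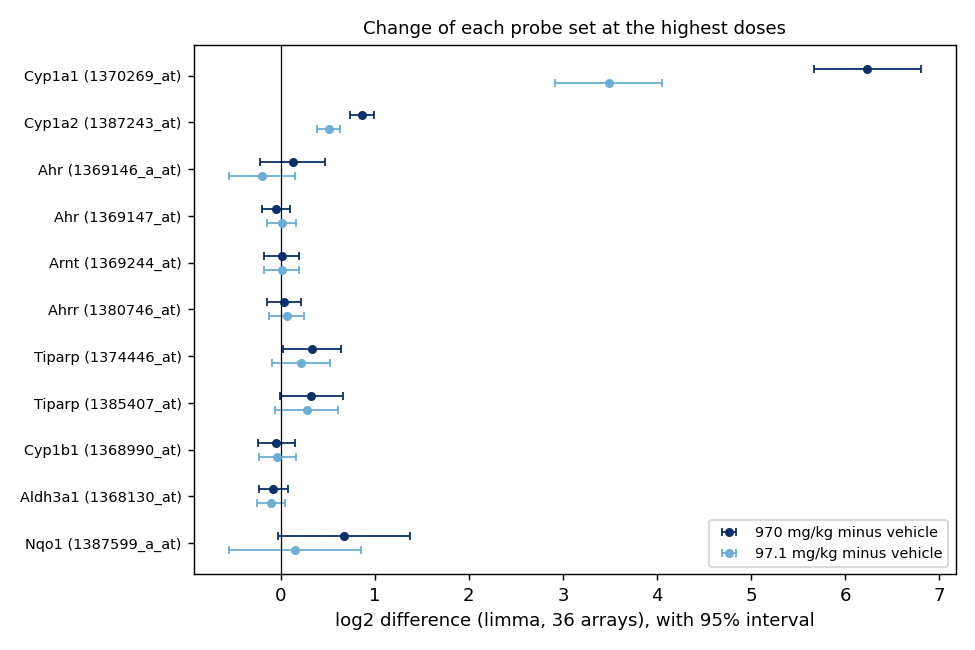
Log2 difference from vehicle (horizontal axis, with 95% intervals from limma over 36 arrays) of each probe set (rows) at 970 mg/kg (dark) and at 97.1 mg/kg (light). Cyp1a1 lies at 6.23 and 3.49, and the intervals of the pathway genes all end below 1.4.

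Animals with more Cyp1a1 at a given dose were not shown to have more of any pathway gene. Within the 970 mg/kg, 97.1 mg/kg and vehicle groups (6 animals each) 27 relations with Cyp1a1 were computed, and Pearson r ranged from -0.81 (Ahrr in vehicle) to 0.91 (Aldh3a1 at 970 mg/kg). The lowest exact permutation p was 0.0181 for Pearson r and 0.0333 for Spearman rho (0.89), both for Aldh3a1 at 970 mg/kg, with Benjamini-Hochberg adjusted values of 0.45 and 0.675 over the 27. Without the 2 animals farthest from the median Cyp1a1 signal that r was 0.54, and the Ahrr relation in vehicle changed sign to 0.46. Those values rest on 4 animals each and moved widely in both directions: at 97.1 mg/kg the r of 0.71 for Arnt became 0.99 and that of 0.62 for Aldh3a1 became 0.92. None of the 27 relations passed the adjustment. With 6 animals the exact p can take few values, so a lone Spearman rho could not have passed over 27 relations, whatever its size.

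Genes around the pathway were read from lists of its components and of related enzymes, each gene by its brightest probe set. At 970 mg/kg the median over all 14217 genes was -0.01 and 47.5% of them were above 0. Of the cytosolic complex that holds the receptor, 4 of 6 genes were measured, 0 rose and 0 fell, and the median was 0.01. The co-chaperone Ptges3 was at 0.06, Stub1 at -0.06 and the chaperone Hsp90ab1 at 0.02. Of the 8 partners of the same bHLH-PAS family 0 passed and the median was 0.01. The clock genes Npas2 and Clock were at 0.21 and 0.09, Hif3a at -0.09 and the hypoxia factor Hif1a at -0.04. Of 11 measured coregulators 0 passed and the median was 0.03. The coactivators Ncoa1, Crebbp and Ep300 were at -0.10, 0.10 and 0.07, and Sp1 at -0.10.

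Among other genes known to respond to the AhR in rodent liver, 2 of 14 measured rose, Cyp1a1 and Cyp1a2, and 0 fell. The median of the 14, with Cyp1a1 and Cyp1a2 counted among them, was 0.10, and 12 of them were above 0. The list was not split by the direction in which each gene responds to the AhR, so counts above 0 are a description. At 97.1 mg/kg 9 of the 14 were above 0 (median 0.07), at 9.71 mg/kg 8 (0.03), at 0.97 mg/kg 10 (0.01) and at 0.1 mg/kg 9 (0.04). The shares of all genes above 0 at those doses were 49.6%, 46.9%, 48.7% and 50.6%. At 970 mg/kg the selenium-binding protein gene Selenbp1 differed by 0.13 (0.02 to 0.23). Lrat, which stores vitamin A as esters, differed by -0.18 (-0.35 to -0.01), with limma adjusted p values of 0.966 for both. The list of Nrf2 targets had 17 of 18 genes measured, 0 rose and 0 fell, 12 were above 0 and the median was 0.06. In it, the haem oxygenase Hmox1 differed by 0.26 (0.08 to 0.44), the efflux pump Abcc4 by 0.27 (0.03 to 0.51), Mgst2 by 0.13 and the glutathione transferase Gstp1 by -0.12, with limma adjusted p values of 0.966 for all 4. At 97.1 mg/kg 14 of these 17 were above 0 with a median of 0.07, against 49.6% of all genes, and 0 passed. At 9.71 mg/kg 4 of the 17 were above 0 (median -0.04), against 46.9% of all genes, and for 970 against 97.1 mg/kg 7 were (median -0.02), against 48.1%.

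The remaining lists held relatives of the pathway enzymes. Of 6 measured aldehyde dehydrogenases besides Aldh3a1 0 passed and 1 was above 0, with a median of -0.04; Aldh3b1 was at -0.23 (-0.48 to 0.03), Aldh3a2 at -0.04 and Aldh1a1 at 0.14. Of 9 measured genes of the poly-ADP-ribose polymerase family, to which Tiparp belongs, 0 passed and the median was 0.02, with Parp12 at 0.21, Parp14 at 0.17 and Parp2 at -0.11. Of 6 measured quinone-handling genes besides Nqo1 0 passed and the median was 0.03, with the related reductase Nqo2 at 0.04 (-0.14 to 0.22) and the P450 reductase Por at -0.09 (-0.42 to 0.24).

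**Figure D5:**
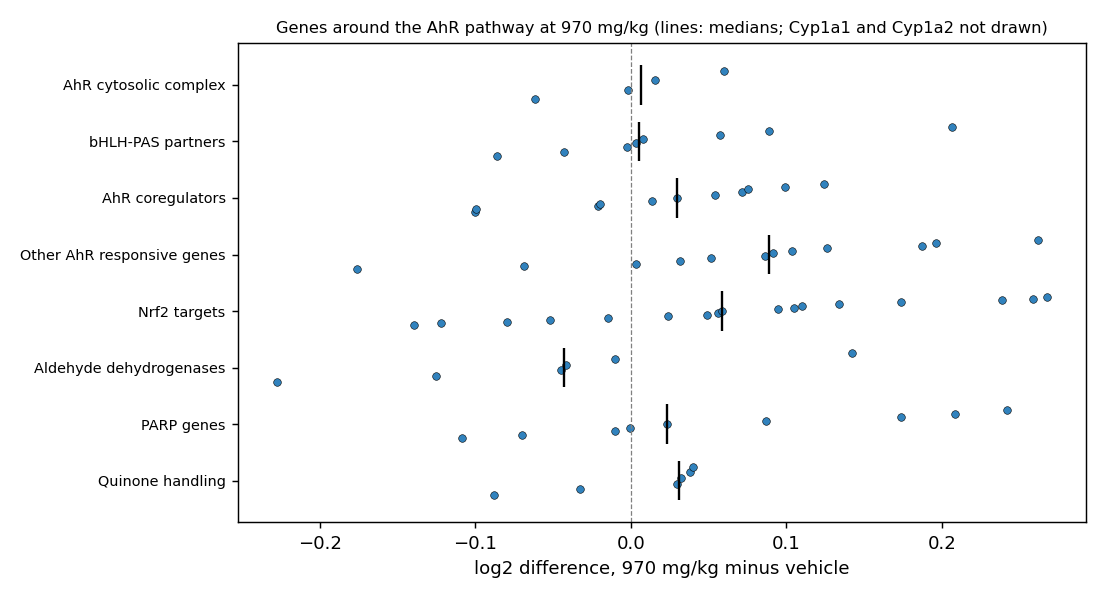
Log2 difference between 970 mg/kg and vehicle (horizontal axis) of each measured gene in 8 lists around the AhR pathway (rows); points are genes and vertical lines the medians of the genes drawn, with Cyp1a1 and Cyp1a2 left out. The genes drawn lie between -0.23 (Aldh3b1) and 0.27 (Abcc4), and 0 of them passed the test.

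The arrays were alike: pairs correlated at r = 0.993 to 0.997 across probe sets and array medians lay between 5.07 and 5.12. Hepatocyte markers were bright at 970 mg/kg and in vehicle, with list means of 14.03 to 14.09 per animal at 970 mg/kg and 14.04 to 14.10 in vehicle. Markers of macrophages lay above 0 at 970 mg/kg in 7 of 7 genes (median 0.21), with list means of 8.05 to 8.59 per animal at 970 mg/kg and 7.78 to 8.63 in vehicle. Those macrophage markers were above 0 in 7 of 7 at 0.1 mg/kg (median 0.19) and at 0.97 mg/kg (0.26) too, and in 6 of 7 at 9.71 (0.15) and 97.1 mg/kg (0.12). Neutrophil markers did so at 970 mg/kg in 4 of 4 (median 0.12; list means 4.04 to 5.55 at 970 mg/kg and 4.16 to 4.41 in vehicle), bile duct markers in 3 of 3 (0.15), T and NK cell markers in 3 of 4 (0.16) and red cell markers in 2 of 2 (0.15), with 0 of them passing the test. The T and NK cell markers were above 0 in 4 of 4 at 0.97 and at 97.1 mg/kg, with a median of 0.19 at each. Neutrophil markers were above 0 in 4 of 4 at 97.1 mg/kg (0.21) and at 0.1 mg/kg (0.12) too. They were so in 3 of 4 at 0.97 mg/kg (0.15) and in 2 of 4 at 9.71 mg/kg (-0.05). Bile duct markers were above 0 in 3 of 3 at 97.1 mg/kg (0.04) and at 9.71 mg/kg (0.10). At 0.97 mg/kg 2 of the 3 were (0.10), and at 0.1 mg/kg 1 was (-0.04). At 970 mg/kg stellate cell markers lay above 0 in 3 of 8 (-0.02) and endothelial markers in 1 of 6 (-0.05). The part of these cells in the values of Tiparp and Nqo1 was not tested, and in whole tissue fewer cells of a type and less RNA per cell cannot be told apart.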

How the data were processed

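Per the submitters' processing notes, the tools behind the authors' deposited log2 signals were RMA and affy; their versions are not given in the sources used here. The table held 31099 probe sets in 36 arrays, of which 57 controls were left out. The platform annotation names 1 gene for 20826 probe sets, several for 436 and none for 9780. Groups were taken from the labels, each array was taken as 1 rat, and their number (6 per group) limits the precision. Each dose was compared with vehicle in limma 3.58.1 (R 4.3.3; lmFit and eBayes over all 36 arrays, two-sided, Benjamini-Hochberg over 31042 probe sets, threshold 0.05), and a slope on the dose step, an F test of any dose and 970 against 97.1 mg/kg were read from such fits. No low signal was filtered. Single genes were also tested by exact permutation (scipy 1.17.1).

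Across all probe sets, replicate numbers did not visibly pair the animals. Over 90 pairs of same-numbered arrays the residuals had a mean r of 0.0048 (-0.25 to 0.26, 15 above 0.1). That mean does not speak for a single gene. The high Nqo1 animals of vehicle, 0.1 and 97.1 mg/kg were all replicate 5, and that of 970 mg/kg was replicate 6. The genes, lists and tests were chosen with earlier results of these data known. The rule was to name all 7 genes, Cyp1a1 and Cyp1a2, and the 3 genes most like each pathway gene by Pearson r. List genes were named from among the 4 of smallest p at 970 mg/kg in each list, and not all 4 are given for every list. Alternatives were array scaling, array weights, the variance prior, the replicate block, the beta-actin 3′ to 5′ difference as a covariate, a filter on low signals, the 12 arrays compared alone, other thresholds, each array left out and, chosen after seeing the data, robust regression, mean ranks and the fit without 4 arrays of high Nqo1. The script was tested on simulated data. Gene neighbours and promoter windows come from RefSeq on GRCr8.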

Additional observations from a re-analysis of the deposited data

Results flagged for a closer look

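Within each group of 6 animals the highest and lowest values were compared with their nearest neighbour by Dixon's test, over 66 sets of 6 (11 probe sets, 6 groups). Chance gives about 1 in 20 such sets a value that stands apart, and 11 did. Nqo1 accounted for 4 of them, each a high value: 8.96 in vehicle replicate 5, 9.14 at 0.1 mg/kg (replicate 5), 9.53 at 97.1 mg/kg (replicate 5) and 9.75 at 970 mg/kg (replicate 6).

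The other 7 were of smaller size. Ahr had a low value of 4.50 at 0.1 mg/kg (1369146_a_at, replicate 2) and a high value of 4.97 at the same dose in another animal (1369147_at, replicate 6). At 97.1 mg/kg, Arnt was low at 4.04 (replicate 5), Aldh3a1 was low at 3.14 (replicate 2), and Ahrr and Cyp1b1 were high at 3.63 and 5.35 in the same animal (replicate 6). Cyp1a1 was low at 4.18 in 1 animal at 0.1 mg/kg (replicate 4).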

How the results depend on the processing

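The count of pathway probe sets past the threshold was 0 in each of 8 comparisons, and it stayed 0 in 102 of 107 alternatives. The 5 exceptions were all Nqo1, a count of 1, under the alternatives chosen after seeing the data: robust regression for 970 mg/kg against vehicle, 970 against 97.1 mg/kg and any dose (283 probe sets called in all), and the fit without the 4 arrays for 970 mg/kg against vehicle and any dose. Nqo1 at 970 mg/kg was 0.68 and 0.65 in those fits. Under the other alternatives, single animals left out among them, its difference lay between 0.38 and 0.95 with limma adjusted p values of 0.818 to 0.998. The cause of the difference between the standard and the robust fit was not tested, beyond the 4 animals named. For the 6 other genes, 262 of 262 alternatives kept the side of the threshold, with the lowest adjusted p at 0.269 (Tiparp, robust regression). The excess of Cyp1a1 over each gene held in 36 of 36 alternatives of array scaling. Centring an array on its median shifts Cyp1a1 and the gene alike and cancels in their difference. Only the other scaling, cyclic loess, could therefore have changed the excess. With TNGCGTG in place of GCGTG the number of windows with a match was 2 and not 5. With the replicate block, 0 pathway probe sets passed in any comparison, and Nqo1 at 970 mg/kg was 0.68 (0.03 to 1.32; limma adjusted p = 0.964). Precision is limited by 6 arrays per group and by signals near the olfactory receptor range.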

Other observations

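The nearest companions of Ahr, Arnt, Ahrr, Cyp1b1 and Aldh3a1 were also read off, by Pearson r over the 36 arrays and as a description. Ahr (1369146_a_at) ran most closely with Rarb, a retinoic acid receptor (r = 0.69), Tmem170a (0.69) and Cmip (0.67), and r with Rarb was 0.57 without the 2 animals farthest from the median. Cyp1b1 ran with Bin2a (0.69), the secreted phospholipase Pla2g2d (0.68) and the transporter Slc6a17 (0.65). Without the 4 animals farthest from the median these were 0.35, 0.81 and 0.47.

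Aldh3a1 was nearest to the kinase Rock2 (0.62), Cachd1 (0.60) and the crystallin Cryaa (0.59). Arnt was nearest to Pkhd1l1 (0.60), Msrb3 (0.54) and Chst10 (0.54), and Ahrr to the ubiquitin ligase Cbl, Tbx4 and Hectd2 (0.58 each). No companion of these 5 genes reached the r of 0.87 to 0.94 seen between Tiparp and its companions.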
